A study of Rattus norvegicus with 111 samples.

Results

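These data are fetal livers of Sprague-Dawley rats whose dams received PFO4DA by mouth at 10 mg/kg/d, set against fetal livers of vehicle controls at 0 mg/kg/d. They comprise 4 libraries at 10 mg/kg/d from 4 dams and 6 control libraries from 6 dams, out of 111 libraries in the series. The libraries were chosen by measured values as well as by labels, because the columns of the count table name the dam and not the life stage. Of a dam's 2 columns, the one with the higher Pearson correlation of log2(CPM + 1) with the single library of dam 2286, labelled maternal, was taken as maternal and the other as fetal. CPM stands for counts scaled to a common library total. Dam 2286 was not a control but received PFO5DoA, the other chemical of the series, at 30 mg/kg/d. By this rule the 30 fetal columns of the PFO4DA table had correlations of 0.872 to 0.918 and the 30 maternal columns 0.955 to 0.978, so the ranges did not overlap. These correlations chose the libraries and are given as a description.

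The series compared expression changes with dose in maternal and fetal liver for PFO4DA and PFO5DoA. Time-mated dams were 11 to 12 weeks old. They were dosed from gestational day 18 to day 22, and livers were taken 2 to 4 h after the last dose. The groups used here are PFO4DA at 10 mg/kg/d and its controls in fetal liver, the same dams' own livers, and fetal livers at PFO5DoA 10 mg/kg/d with the controls of that chemical. Other PFO4DA doses (0.3, 1, 3, 30 and 62.5 mg/kg/d, 4 dams each) share the fit. Every group, controls included, received the vehicle, 0.5% Tween-80. The labels used here do not say how many fetuses a library holds, nor their sex.

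PFO4DA and PFO5DoA are perfluoroalkyl ether carboxylic acids, fluorinated chains interrupted by oxygen atoms. PFO5DoA is the longer homologue. Perfluoroalkyl acids as a class are known to activate PPAR alpha, a fatty acid-sensing nuclear receptor that switches on fat oxidation genes in rodent liver. Near term the fetal rat liver both matures its metabolic functions and still makes blood cells, so a bulk library holds RNA of several cell types. Fewer cells of a type and less RNA per cell cannot be told apart in such libraries. The files identify genes by Ensembl ID alone, and 0 of the 20311 IDs could be paired with a symbol in the reference table used here. The pathway and cell type marker lists, and the check of the tissue label against markers, were therefore not carried out, and genes are given by ID with no role.

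TempO-Seq counts RNAs through detector oligos that are joined when they sit side by side on their target and are then sequenced. It gave 8549587 to 9788212 estimated counts per fetal library at 10 mg/kg/d and 8828966 to 11015792 in controls. The number of genes with a count of at least 1 was 13985 to 14101 at 10 mg/kg/d and 14199 to 16184 in controls. One control library, of dam 2308, stood apart with 16184 genes, where the next control had 14554. Its correlation with the maternal library of dam 2286, a dam dosed with PFO5DoA, was 0.872. That was also the lowest of the 30 PFO4DA fetal libraries. The part of gene detection in the results below was not tested, but the main count is given without that library. The labels name no batch. The dam numbers pass through the doses from 0 upward in 2 runs, 2293 to 2307 and 2308 to 2322, each with 3 of the controls, and this split was used as a possible batch. Dams 2303, 2304 and 2305 of the 10 mg/kg/d group belong to the first and dam 2316 to the second. All 4 dams at 62.5 mg/kg/d belong to the second.

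In fetal liver at 10 mg/kg/d PFO4DA a small share of genes passed the test, and most of these rose. Of 11172 genes tested, 218 rose and 77 fell (edgeR quasi-likelihood test, Benjamini-Hochberg adjusted p below 0.05). These counts are 1.95% and 0.689% of the genes tested, and 2.64% together. Before adjustment, 1788 genes had a p under 0.05 in edgeR, so the calls do not bound the set of genes that changed. The genes that rose had a median log2 fold change of 1.10 (quartiles 0.77 and 1.77), and the genes that fell had a median of -0.73 (quartiles -1.14 and -0.61). Over all genes tested the median was -0.01. These sizes describe genes that the test itself picked.

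Large changes lay mainly on the side of the rises. At least 2-fold changes were fitted for 117 of the 218 rises and 27 of the 77 falls. At least 4-fold changes were fitted for 43 rises and 3 falls, and at least 8-fold changes for 15 rises and 1 fall. Among all genes tested, 71 changed at least 4-fold and 22 at least 8-fold, in either direction. Of those 15 rises, 7 averaged under 5 CPM in both groups. So did all 3 of the 4-fold falls, since the largest fall above that level was -1.65. The part of low counts in their fitted folds was not tested. In 13 of the 15, every library at 10 mg/kg/d lay above every control.

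The called genes were more abundant than the tested genes as a whole. The mean level in the higher group had a median of 32.4 CPM over the rises, 29.1 CPM over the falls and 12.2 CPM over all genes tested. A mean of at least 100 CPM was reached by 50 rises (22.9%) and 16 falls (20.8%), against 10.6% of all genes tested. Changes are easier to call at higher counts, and the higher mean of a rise includes the rise itself. The part of both in these levels was not tested. The most abundant gene that rose averaged 5767 ± 1698 CPM at 10 mg/kg/d (SD, n = 4) and 2374 ± 601 CPM in controls (SD, n = 6). Its log2 fold change was 1.28 (SE 0.23, adjusted p = 0.000769, edgeR). The most abundant gene that fell averaged 919 ± 137 CPM at 10 mg/kg/d and 1292 ± 128 CPM in controls. Its log2 fold change was smaller, at -0.49 (SE 0.12, adjusted p = 0.0239, edgeR).

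**Figure D1:**
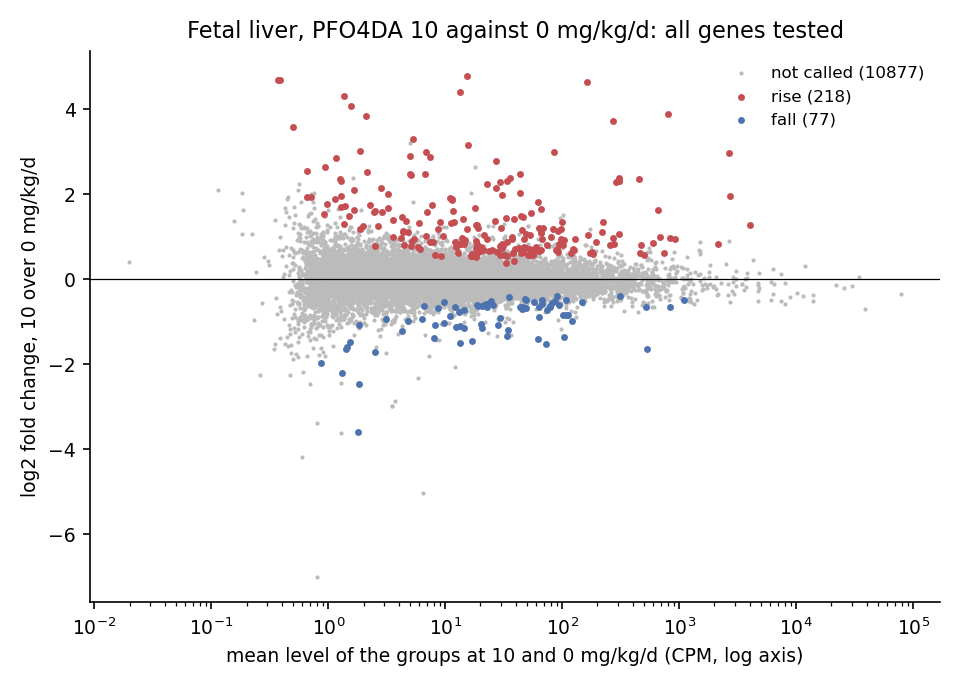
Each point is 1 of the 11172 genes tested in fetal liver, with the mean level of the groups at 10 and 0 mg/kg/d on a log axis (CPM) against the log2 fold change, 10 over 0. The 218 rises (red) reach log2 fold changes of 4.79 and the 77 falls (blue) reach -3.60, and the grey genes were not called.

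The fetal livers of the 4 dams moved together. Of the 218 genes that rose, 216, 218, 217 and 214 lay above the control mean in the libraries of dams 2303, 2304, 2305 and 2316. All 77 genes that fell lay below it in each of those libraries. The median distance from the control mean, on the log2(CPM + 1) scale, was 0.95, 1.08, 1.00 and 0.74 for the rises in the same order of dams. For the falls it lay between -0.73 and -0.70. Dam 2304 thus had the largest distance among the rises and dam 2316 the smallest, while the falls hardly varied between dams. Controls also differed by dam run in the rises. Their median distances were 0.07, 0.07 and 0.22 in dams 2293, 2294 and 2295 of the first run. In dams 2308, 2309 and 2310 of the second run, which also holds dam 2316, they were -0.17, -0.02 and -0.16. The part of the run in the distances of the dosed dams was not tested. The calls were made on these libraries, so the counts describe their spread.

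Not every called gene had fully separated groups, and not every gene with separated groups was called. Every library at 10 mg/kg/d lay above every control for 156 of the 218 rises, and 258 genes (2.31%) did so among all genes tested. Every library at 10 mg/kg/d lay below every control for 53 of the 77 falls, and 196 genes (1.75%) did so among all genes tested. Within the first dam run, 3 dams against 3, the median difference was 0.91 for the rises and -0.62 for the falls on the log2(CPM + 1) scale. Within the second run, with 1 dam against 3, it was 0.83 and -0.77. All 218 rises were above 0 in the first run and 214 in the second, and all 77 falls were below 0 in both. Medians over all genes tested were -0.02 and 0.01 in the first and second run. Of all 11172 genes tested, 5173 were above 0 and 5998 below in the first run. In the second, 5689 were above and 5483 below. The rises and falls were called on these same libraries, so agreement of sign within the runs was largely built in.

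How many genes were called depended on which libraries entered. Leaving out dam 2304 of the 10 mg/kg/d group gave 170 calls and leaving out dam 2305 gave 172. Leaving out control dam 2295 gave 459 calls, 282 of them among the 295. Without dam 2308, the control with the most genes detected, 175 genes rose and 42 fell. A fit of the 10 and 0 mg/kg/d libraries alone, which estimates the spread from fewer samples, called 127 rises and 28 falls, 151 of the 155 among the 295. The first dam run alone called 49 rises and 4 falls. At the threshold itself, the gene just inside had an adjusted p of 0.0495 (log2 fold change -0.61) and the gene just outside had 0.0506 (0.76, edgeR).

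Among genes with at least 5 CPM in either group, the largest rise was that of ENSRNOG00000017424. Its level at 10 mg/kg/d was 25.4, 46.2, 26.0 and 20.5 CPM in dams 2303, 2304, 2305 and 2316. In the 6 controls the lowest level was 0.0943, the median 1.04 and the highest 2.22 CPM. Every library at 10 mg/kg/d was above every control, and dam 2304 was the highest. The lowest control was dam 2308, with 1 count. The log2 fold change was 4.79 (SE 0.40, 95% interval 4.01 to 5.56, adjusted p = 2.65e-09, edgeR). Within the first dam run the difference of mean log2(CPM + 1) was 4.20, and within the second 3.35.

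ENSRNOG00000055221 had the next largest rise and was more abundant. It stood at 155, 348, 456 and 301 CPM at 10 mg/kg/d, in the same order of dams, against controls of 2.12 CPM at the lowest, 4.85 at the median and 55.9 at the highest. The groups did not overlap, but control dam 2293, with 55.9 CPM, lay far above the other 5 controls, which reached 6.23 CPM. The log2 fold change was 4.63 (SE 0.65, interval 3.35 to 5.91, adjusted p = 7.00e-05, edgeR) and 6.24 without dam 2293. Within the first dam run the difference of mean log2(CPM + 1) was 5.09, and within the second 5.61. The call was lost when only the 10 and 0 mg/kg/d libraries were fitted (adjusted p = 0.0791) and in the first dam run alone (adjusted p = 0.694).

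ENSRNOG00000018991 had the largest fall among genes of that level. It stood at 344, 160, 283 and 240 CPM at 10 mg/kg/d, against 353 CPM in the lowest control, 881 at the median and 1221 in the highest. The groups did not overlap, although the highest library at 10 mg/kg/d (dam 2303) came close to the lowest control (dam 2309). The log2 fold change was -1.65 (SE 0.39, interval -2.40 to -0.89, adjusted p = 0.0152, edgeR). Differences of mean log2(CPM + 1) were -1.83 in the first dam run and -1.39 in the second. The adjusted p was 0.0799 without dam 2304, 0.0511 without dam 2305 and 0.151 with a minimum fold of 1.5.

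ENSRNOG00000004009 fell less firmly. It stood at 47.3, 44.5, 37.6 and 20.3 CPM at 10 mg/kg/d, against 40.5 CPM in the lowest control, 101 at the median and 220 in the highest. Here the groups overlapped, since control dam 2293 lay below dams 2303 and 2304. The log2 fold change was -1.53 (SE 0.38, interval -2.28 to -0.79, adjusted p = 0.0244, edgeR). Differences of mean log2(CPM + 1) were -1.28 in the first dam run and -1.91 in the second. The call was lost without control dam 2294 (adjusted p = 0.0591), dam 2304 (0.0545), dam 2305 (0.0746) or dam 2316 (0.0790). It was also lost with only the 10 and 0 mg/kg/d libraries fitted (0.174), in the first dam run alone (0.471), with no filter on low counts (0.0612) and with a minimum fold of 1.5 (0.235).

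**Figure D2:**
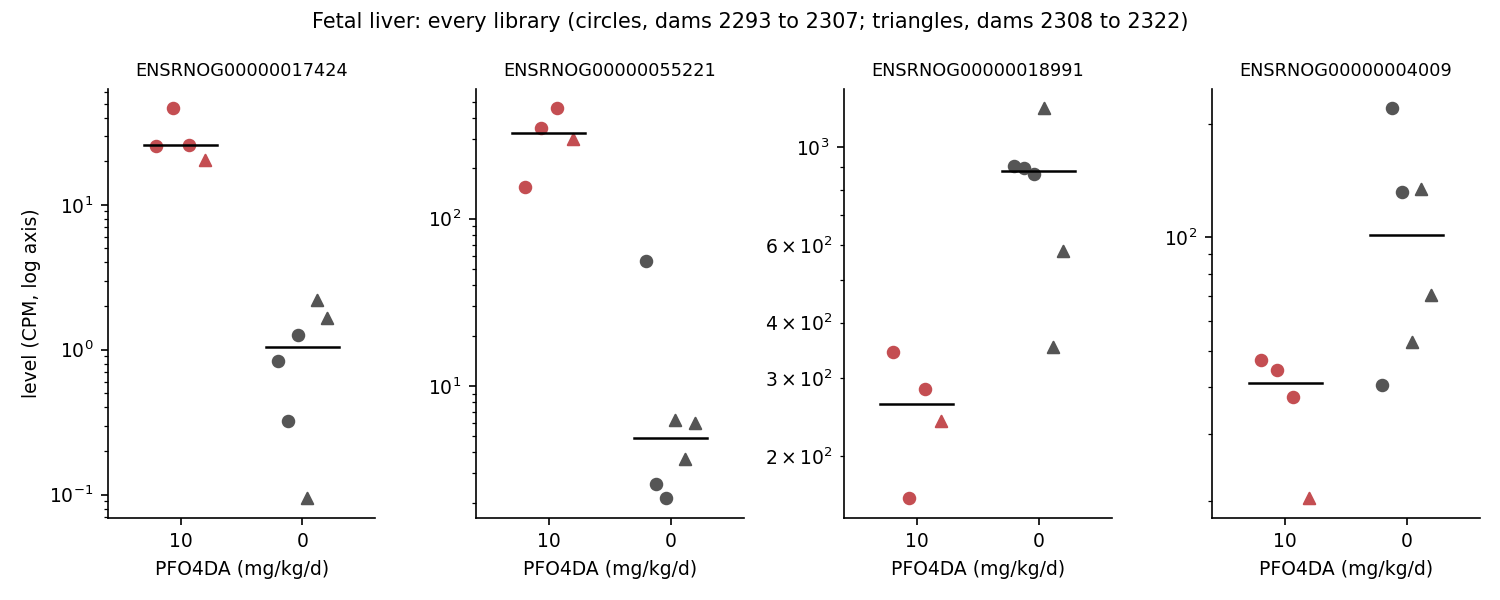
Levels in CPM on a log axis of the 2 largest rises and the 2 largest falls with at least 5 CPM, 1 point per fetal library, with PFO4DA 10 mg/kg/d left and 0 mg/kg/d right. Bars are group medians, circles are dams 2293 to 2307 and triangles dams 2308 to 2322. ENSRNOG00000004009 overlaps between groups and the other 3 do not.

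The same genes were described in fetal livers at the other doses. All doses were compared with the same 6 controls, so their values are not independent and no test was made between them. For the 218 rises called at 10 mg/kg/d, fetal livers had median log2 fold changes of 0.22, 0.35 and 0.61 at 0.3, 1 and 3 mg/kg/d, 1.10 at 10, and 1.18 and 1.21 at 30 and 62.5 mg/kg/d. For the 77 falls the medians were -0.19, -0.30 and -0.34, then -0.73 at 10, and -0.88 and -0.95 at 30 and 62.5 mg/kg/d. Over all genes tested the medians stayed between -0.01 and 0.01. The genes were picked at 10 mg/kg/d against these controls, and the part of that choice in the medians was not tested. Between 30 and 10 mg/kg/d, 138 of the 218 rises (63.3%) had a higher mean level at 30, against 48.8% of all genes tested.

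The summed level of the called genes weights abundant genes more and went on moving above 10 mg/kg/d. The 218 rises summed to 32275 to 50456 CPM at 10 mg/kg/d, against 13664 to 17862 CPM in controls. Their mean sums were 15646 CPM at 0, 19422 at 0.3, 19291 at 1, 25274 at 3, 40729 at 10, 55817 at 30 and 62235 at 62.5 mg/kg/d. The 77 falls summed to 4296 to 4805 CPM at 10 mg/kg/d, against 6785 to 8792 CPM in controls. The sums at 10 mg/kg/d were above those of every library at 3 mg/kg/d for the rises (highest 29343 CPM) and below them for the falls (lowest 5210 CPM). At 30 mg/kg/d the rises summed to 51094 CPM or more, above every library at 10, while the lowest library at 62.5 mg/kg/d (47648 CPM, dam 2320) lay below the highest at 10. The falls summed to at most 4126 CPM at 30 and 3634 CPM at 62.5 mg/kg/d, below every library at 10. The genes were picked on the libraries at 10 and 0 mg/kg/d, so a gap between those sums was built in. The part of that choice in the sums at other doses was not tested. Control sums of the rises were 16205 to 17862 CPM in the first dam run and 13664 to 15506 CPM in the second. All dams at 62.5 mg/kg/d belong to the second run, and most at 10 mg/kg/d to the first. The part of the run in the sums was not tested.

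**Figure D3:**
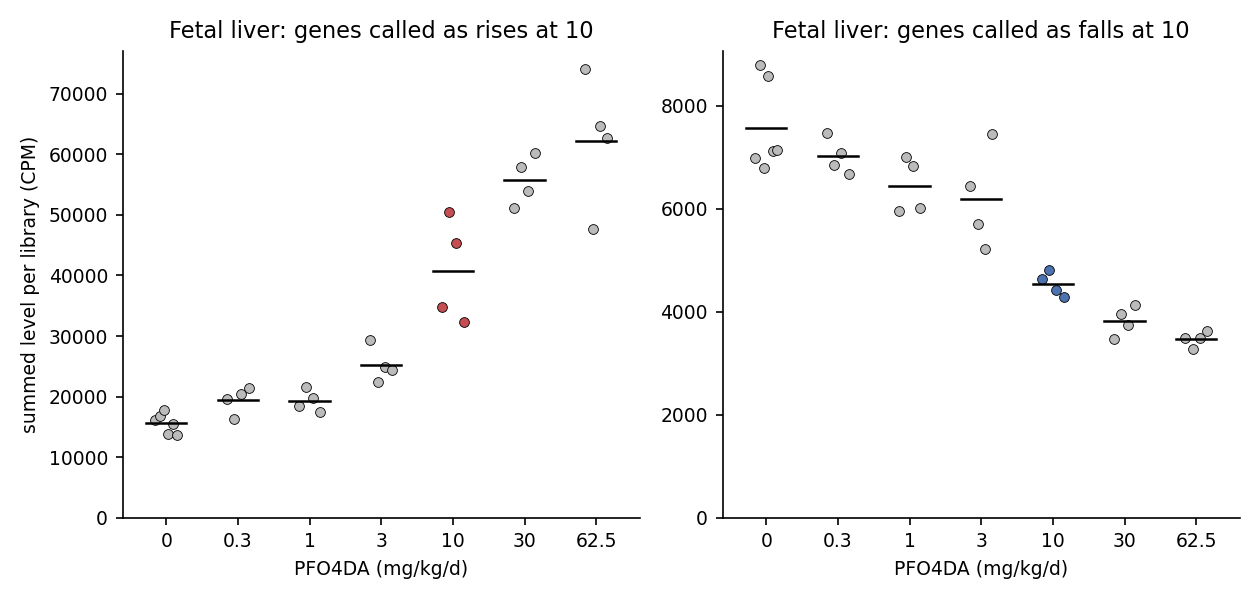
Summed level in CPM per fetal library, by PFO4DA dose from 0 to 62.5 mg/kg/d, of the 218 genes called as rises (left) and the 77 called as falls (right) at 10 mg/kg/d. Points are libraries, bars are group means, and 10 mg/kg/d is coloured, with means of 40729 CPM and 4538 CPM.

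The 4 genes named above followed different courses. ENSRNOG00000017424 averaged 1.06 ± 0.81 CPM in controls (SD, n = 6), then 2.84 ± 1.09, 3.57 ± 0.16 and 8.25 ± 4.27 CPM at 0.3, 1 and 3 mg/kg/d. It reached 29.5 ± 11.4 CPM at 10, 42.4 ± 9.5 at 30 and 63.4 ± 17.0 at 62.5 mg/kg/d (SD, n = 4 each). It passed the test at 3 mg/kg/d (adjusted p = 0.000247, edgeR) and not at 1 mg/kg/d (0.467). Each step of the mean was upward. The mean of ENSRNOG00000055221 was 2.77 ± 0.46 CPM at 0.3 and 9.07 ± 4.78 at 1 mg/kg/d, against 12.8 ± 21.2 in controls. That control mean includes dam 2293, with 55.9 CPM. By medians the gene stood at 4.85 CPM in controls, 2.62 at 0.3 and 7.83 at 1 mg/kg/d. It then averaged 103 ± 47 CPM at 3, 315 ± 125 at 10, 594 ± 149 at 30 and 688 ± 132 at 62.5 mg/kg/d. It also passed the test at 3 mg/kg/d (adjusted p = 0.0237, edgeR).

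Both falls went further at higher doses. ENSRNOG00000018991 averaged 804 ± 300 CPM in controls, 574 ± 177 at 0.3, 688 ± 390 at 1, 536 ± 355 at 3, 257 ± 77 at 10, 146 ± 45 at 30 and 110 ± 18 at 62.5 mg/kg/d. The spread at 3 mg/kg/d ran from 219 to 1034 CPM and so covered part of both the controls and the 10 mg/kg/d group. ENSRNOG00000004009 averaged 108 ± 67 CPM in controls, 146 ± 31 at 0.3, 122 ± 43 at 1, 80.4 ± 15.4 at 3, 37.4 ± 12.1 at 10, 9.66 ± 3.80 at 30 and 4.68 ± 1.46 at 62.5 mg/kg/d. Neither fall passed the test at 3 mg/kg/d (adjusted p = 0.809 and 0.872, edgeR). At 30 mg/kg/d both did, with log2 fold changes of -2.46 (adjusted p = 0.000140) and -3.48 (2.16e-06).

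In the same dams' own livers far fewer genes were called at 10 mg/kg/d. One gene of 10263 tested passed the threshold (0.00974%), a rise, and 825 had an unadjusted p under 0.05 in edgeR. DESeq2 called 23 rises and 10 falls there. The called gene stood at 60.6, 90.6, 48.2 and 38.5 CPM in the maternal livers of dams 2303, 2304, 2305 and 2316, against 13.4 to 26.1 CPM in controls, with no overlap. Its maternal log2 fold change was 1.65 (SE 0.20, adjusted p = 3.50e-05, edgeR). In fetal liver it stood at 607, 1062, 850 and 517 CPM in the same dams, against 96.4 to 243 CPM in controls, again with no overlap. The fetal log2 fold change was 2.36 (SE 0.25, adjusted p = 2.22e-07). Dam 2304 was the highest in both livers. The 2 responses differed by 0.76 (SE 0.28), which did not pass the test of the difference (adjusted p = 0.231).

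The fetal rises leaned the same way in maternal liver, at a much smaller size. Of the 218 rises, 198 were tested in maternal liver. Their median maternal log2 fold change was 0.17 (quartiles -0.05 and 0.47), where their fetal median was 0.99. The maternal value was above 0 for 144 of them (72.7%), against 53.6% of the 9874 fetal genes also tested in maternal liver. Of the 77 falls, 71 were tested in maternal liver, with a maternal median of -0.02 and a fetal median of -0.71. Their maternal values were above 0 for 34 genes (47.9%). The maternal and fetal libraries are of the same dams and so are not independent.

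**Figure D4:**
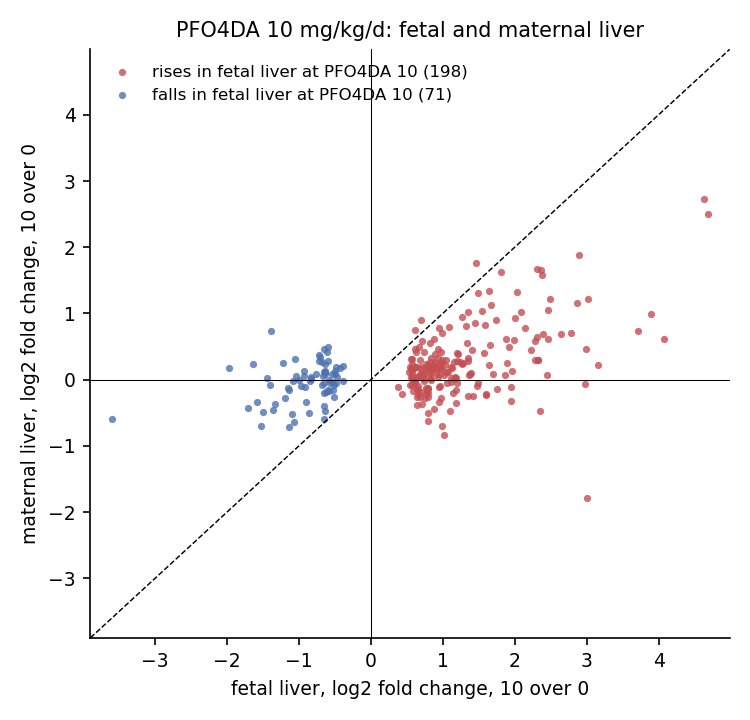
Log2 fold change at PFO4DA 10 over 0 mg/kg/d in fetal liver (horizontal) and maternal liver (vertical) for the 198 rises (red) and 71 falls (blue) of fetal liver that were also tested in maternal liver. The dashed line marks equal responses, and the maternal medians are 0.17 for the rises and -0.02 for the falls.

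The difference between the livers was tested directly, with the dam as a block. It passed for 58 of 11610 genes (0.5%), with a higher response in fetal liver for 41 and a lower one for 17. In the 41 genes the median fetal log2 fold change was 1.14, and the 40 of them tested in maternal liver had a maternal median of -0.13. In the 17 genes the fetal median was -0.74 and the maternal median 0.42. Of the fetal calls, 33 of the 218 rises and 9 of the 77 falls were among the 58. The other 16 genes were not called in fetal liver alone. Both tests use the same fetal libraries. For most fetal calls the difference from maternal liver did not pass, although it had a median of 0.91 over the rises and -0.79 over the falls. Leaving out control dam 2308 reduced the 58 to 24, control dam 2309 to 31, dam 2303 to 32 and dam 2304 to 34. The count was 83 without control dam 2293 and 81 without control dam 2295. DESeq2 called 200 genes, and edgeR with no filter on low counts called 352.

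None of the 4 named genes passed edgeR's test of the difference as fitted with the filter on low counts. Without that filter edgeR called it for ENSRNOG00000017424 (adjusted p = 0.0233), ENSRNOG00000055221 (3.46e-10) and ENSRNOG00000018991 (1.17e-06). DESeq2 called the same 3 genes (adjusted p = 0.00650, 0.00100 and 0.0215, in that order). Whether these genes responded differently in the livers therefore depended on the filter and the tool. ENSRNOG00000017424 had 0 to 2 counts in every maternal library at 10 mg/kg/d and in controls and was too low to be tested there, so no fold is given. ENSRNOG00000055221 stood at 3.02, 18.2, 1.68 and 2.55 CPM in maternal livers at 10 mg/kg/d, against 0.579 to 1.73 CPM in controls. Dam 2304 stood far above the other 3, and dam 2305 lay just below the highest control. Its maternal log2 fold change was 2.73 (SE 0.57, adjusted p = 0.118, edgeR), and it passed when dam 2305 was left out (adjusted p = 0.0254) and in DESeq2 (adjusted p = 0.00152). Without dam 2304 it was 1.37 (adjusted p = 0.423). The fetal minus maternal difference was 3.03 (interval 1.39 to 4.68, adjusted p = 0.0974), and it also passed without control dam 2293 (3.97, adjusted p = 0.00496) or without dam 2304 (3.79, 0.0343).

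The falls differed in their maternal levels. ENSRNOG00000018991 averaged 2.00 ± 1.02 CPM in maternal livers at 10 mg/kg/d and 1.69 ± 0.85 CPM in maternal controls, far under its fetal levels. Its fetal minus maternal difference was -1.86 (interval -2.87 to -0.85, adjusted p = 0.0903, edgeR), and -1.84 without the filter on low counts, where it passed as given above. ENSRNOG00000004009 stood at 29.8, 17.8, 20.2 and 20.7 CPM in maternal livers at 10 mg/kg/d, against 17.1 to 43.9 CPM in maternal controls, with overlap. Its maternal log2 fold change was -0.70 (SE 0.38, adjusted p = 0.665) and the difference -0.71 (interval -1.73 to 0.31, adjusted p = 0.582).

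Levels in control livers gave a further description of the called genes. The fetal minus maternal level had a median of -0.60 on the log2 scale over the 218 rises, 0.67 over the 77 falls and 0.11 over all genes tested. At least 4-fold lower levels in fetal than in maternal controls were seen for 35 rises (16.1%), 6 falls (7.79%) and 3.29% of all genes tested. At least 4-fold higher fetal levels were seen for 7 rises (3.21%), 7 falls (9.09%) and 5.51% of all genes tested. Rises thus tended to be lower in fetal than in maternal controls and falls higher. Life stage was assigned from such levels and the same controls enter the calls, so no test was made.

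At the matched dose of 10 mg/kg/d the longer homologue had many more calls in fetal liver in a joint fit of both tables, 52 libraries in all. PFO5DoA, with 4 dams against its own 5 controls, gave 965 rises (8.23%) and 1065 falls (9.08%) among 11732 genes tested. In the same fit PFO4DA, with 4 dams against 6 controls, gave 218 rises and 80 falls. The overlaps below use the 218 rises and 77 falls of the PFO4DA fit. Its rises held 159 of the 218 PFO4DA rises (72.9%), which are 16.5% of the PFO5DoA rises. Its falls held 55 of the 77 PFO4DA falls (71.4%), which are 5.16% of the PFO5DoA falls. The 2 chemicals have separate dams and controls. One PFO4DA rise (log2 fold change 0.43, adjusted p = 0.0421) fell under PFO5DoA (-0.38, adjusted p = 0.0412, edgeR).

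Over the genes called under PFO4DA, most single differences between the chemicals did not pass a test. The 218 PFO4DA rises had a median log2 fold change of 1.36 under PFO5DoA (quartiles 0.62 and 2.57), against 1.10 under PFO4DA. The 77 falls had a median of -0.91 under PFO5DoA (quartiles -1.84 and -0.43), against -0.73 under PFO4DA. Gene by gene, the difference PFO5DoA minus PFO4DA had a median of 0.20 over the rises and -0.06 over the falls. The PFO4DA values are those that picked the genes. The difference between the chemicals, PFO5DoA minus PFO4DA, passed its test for 477 of 11732 genes (4.07%), with 172 higher and 305 lower under PFO5DoA. Among the PFO4DA rises it was higher for 32 and lower for 9, and among the falls it was higher for 1 and lower for 13. For the other 177 rises and 63 falls the difference did not pass, which does not show equal responses. Leaving out dam 2303 reduced the 477 to 288.

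**Figure D5:**
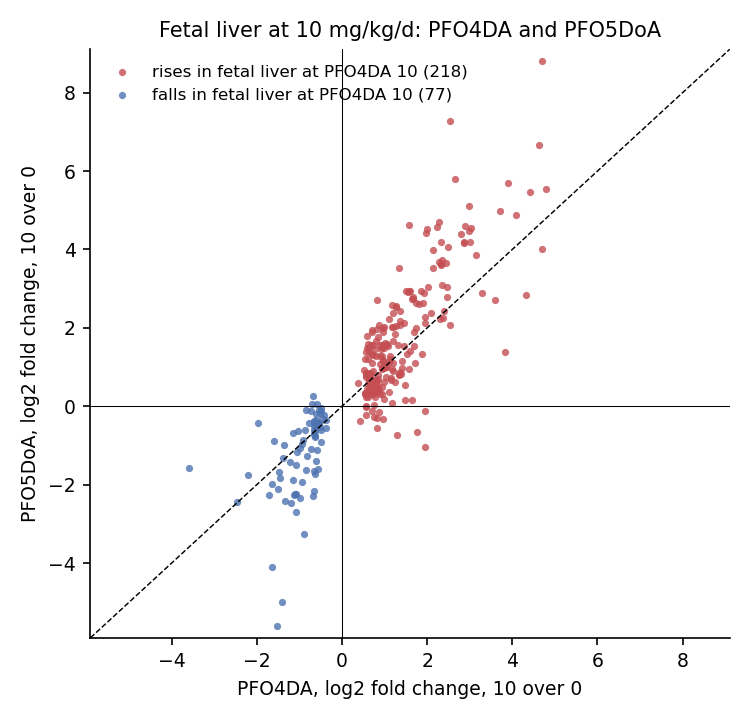
Log2 fold change at 10 over 0 mg/kg/d in fetal liver under PFO4DA (horizontal) and PFO5DoA (vertical), for the 218 rises (red) and 77 falls (blue) called under PFO4DA. The dashed line marks equal responses, and the PFO5DoA medians are 1.36 and -0.91.

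For the 4 named genes the compounds were compared as part of that single adjustment over 11732 genes. ENSRNOG00000017424 stood at 61.0, 48.8, 148 and 113 CPM at PFO5DoA 10 mg/kg/d, against 0.277 to 3.70 CPM in the controls of that chemical. The responses differed by 0.76 (interval -0.61 to 2.13, adjusted p = 0.660, edgeR), so a difference was not detectable at this spread. ENSRNOG00000055221 stood at 730, 826, 1110 and 916 CPM at PFO5DoA 10 mg/kg/d, against 5.73 to 15.2 CPM in those controls. Its responses differed by 2.04 (interval 0.57 to 3.52, adjusted p = 0.126), which did not pass, and by 0.43 without PFO4DA control dam 2293. Both genes had separated groups under either chemical.

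Both falls were deeper under PFO5DoA. ENSRNOG00000018991 stood at 48.2, 56.3, 14.2 and 19.9 CPM at PFO5DoA 10 mg/kg/d, against 284 to 1218 CPM in its controls, without overlap. The responses differed by -2.46 (interval -3.70 to -1.21, adjusted p = 0.0178, edgeR), and the call was lost without PFO4DA dam 2303 (adjusted p = 0.0527) or PFO5DoA control dam 2264 (0.0565), and with a minimum fold of 1.5 (0.0952). ENSRNOG00000004009 stood at 2.32, 2.65, 1.85 and 1.31 CPM at PFO5DoA 10 mg/kg/d, against 74.6 to 145 CPM in its controls. The responses differed by -4.09 (interval -5.12 to -3.07, adjusted p = 1.40e-06, edgeR), the largest difference of the 4 genes, and all 4 PFO5DoA libraries lay far below the lowest control.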

How the data were processed

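The deposited files are a table of unnormalized estimated counts for each chemical, with 20311 genes in rows and libraries in columns. The panel holds 22253 probes for 20924 genes, per the labels' protocols. Alignment and analysis used Partek Flow build 10.0.22.1115, per the labels' protocols, and STAR 2.7.8a and the build mRatBN7.2 are named in the submitters' processing notes. Of the deposited estimated counts, 11.8% (PFO4DA) and 12.2% (PFO5DoA) had decimals, as had 36.3% of the called genes in some library against 35.2% of those tested. They were rounded to whole numbers. Reads shared by near-identical genes may therefore be split. One pair of called genes had nearly equal counts (r above 0.99, ratio under 1.1).

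Dose came from the labels through the dam number that opens each column name, and life stage from the correlation rule. Fits used R 4.3.3 with edgeR 4.0.16, with low counts removed by filterByExpr, TMM scaling and the robust quasi-likelihood test. The PFO4DA fits held all doses of a life stage, 30 libraries each, so that they share 1 estimate of the spread. The fetal minus maternal test used all 60 PFO4DA libraries. The test between chemicals left out a PFO5DoA fetal control with 45504 counts (dam 2279). Standard errors are those of the fitted log2 fold changes, and intervals are 1.96 SE on either side. Dams are separate animals and n counts dams. For genes with many counts, counting error is small beside the spread between dams at these depths. For genes with few counts it may not be. No pair of libraries within the groups at 10 and 0 mg/kg/d agreed within sampling noise (smallest chi-square per degree of freedom 15.0). That check used a minimum summed count of 20.

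The comparisons, genes and lists were chosen with earlier results of these data known. The rule for named genes asked for symbols and otherwise allowed at most 2 rises and 2 falls by ID, so the largest with a mean of at least 5 CPM in either group are given. Other genes described without an ID were picked after their values were seen. The 31 gene lists, the marker lists and a promoter motif could not be looked up. Other settings were DESeq2 1.42.0, limma-voom (limma 3.58.1), RLE scaling, no filter on low counts, a minimum fold of 1.5, counts not rounded, fewer libraries in the fit, the dam run, a replicate block and leaving out each dam in turn. The main edgeR fits were also run on simulated counts with known fold changes. The life stage rule, the other settings and the other checks were not.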

Additional observations from a re-analysis of the deposited data

Results flagged for a closer look

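A single control dam, 2293, had 55.9 CPM of ENSRNOG00000055221 in fetal liver, far above the other 5 controls. In maternal liver the same gene had a high control of 1.73 CPM (dam 2310) and a high library of 18.2 CPM at 10 mg/kg/d (dam 2304). Dam 2308 had 16184 genes detected in its fetal control library, also far above the other 5. Of 38 groups of 4 to 6 samples checked for a sample this far away, 4 had one. Chance gives about 1 in 20 for independent groups of normally distributed values. These groups share libraries and their distribution was not checked, so that rate is a rough guide.

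Between the livers, 58 genes differed in their response at 10 mg/kg/d PFO4DA by the test of the difference. Between the chemicals, 477 genes differed in their fetal response at 10 mg/kg/d. Of the named genes, the difference PFO5DoA minus PFO4DA passed for ENSRNOG00000018991 (-2.46) and for ENSRNOG00000004009 (-4.09).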

How the results depend on the processing

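Counts of calls are given as both directions together. In fetal liver at 10 mg/kg/d the 295 calls became 66 with a minimum fold of 1.5, 155 with only 10 and 0 mg/kg/d fitted, 53 in the first dam run (fewer samples in both), 522 with limma-voom and 170 to 459 leaving out 1 dam. DESeq2 (438), RLE scaling (297), no filter (239), unrounded counts (295) and the dam run as a covariate (243) stayed within 1.5 times. In maternal liver the 1 call became 33 with DESeq2, 5 with only 10 and 0 mg/kg/d fitted, 2 with the dam run as a covariate, 0 in the first dam run (247 genes at an unadjusted p under 0.05), 7 with limma-voom and 1 to 4 leaving out 1 dam. The 58 genes that differed between livers became 200 with DESeq2, 352 with no filter on low counts, 10 with a minimum fold of 1.5 and 24 to 83 leaving out 1 dam. The 477 genes that differed between chemicals became 309 with no filter, 91 with a minimum fold of 1.5 and 288 to 546 leaving out 1 dam. Where not stated, the cause was not tested. Signs turned for values that no setting called: the maternal log2 change of ENSRNOG00000018991 was 0.24 with all dams and ran from -0.13 (without dam 2303) to 0.49 leaving out 1 dam, and the difference between chemicals of ENSRNOG00000017424 was -0.39 with a replicate block (0.76 without it). For the named genes, leaving out 1 dam lost a call 8 times and gained one 3 times, and the other settings lost 9 and gained 7. Life stage by Afp level was not run, since no ID could be paired with that gene.

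Replicate numbers of the titles were not taken to pair the dams. Deviations of same-numbered fetal libraries correlated at 0.37, 0.29 and 0.13 for 3 numbers but at -0.15 for the other, and 2 of the 4 libraries at 10 mg/kg/d correlated best with the control of their own number. With a replicate block the fetal count was 151 (140 of them among the 295), ENSRNOG00000004009 had an adjusted p of 0.0611 and the maternal count 1, and with a block within chemical 432 genes differed between chemicals.

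With 4 dams at 10 mg/kg/d the calls rest on few animals. Life stage rests on expression, since the column names do not give it.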
